A study of Mus musculus with 8 samples.

Results

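47 mouse genes of the antioxidant, glutathione and xenobiotic response were followed across the 4 groups of a one-colour Agilent array series. They were taken from a written list of gene symbols, to which the array's probes were matched by RefSeq accession. 46 of the 47 had a probe, 62 probes in all, of 18842 genes with a probe on the array. All 46 were among the 13617 genes tested, and 45 of them were well above background on all 8 arrays. Akr1c13 had no matched probe and was not analysed here.

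The cells were N31, a neural progenitor cell (NPC) line that had been obtained from mouse embryonic stem cells. They expressed either W20 or EGFP, a fluorescent protein that served as the control. The series concerns bacterial proteins and the speed of reprogramming, and the labels do not describe W20 further. W20 cells at 72 h and EGFP cells at 72 h were taken 72 h after reprogramming was started, with doxycycline (Dox) at 40 ng/ml throughout. Those cells spent 48 h in NPC medium and then 24 h in GMEM with LIF at 1000 U/ml, 10% KSR, ACTH, 1 mM pyruvate, nonessential amino acids and 100 μM 2-mercaptoethanol, which is itself a thiol reductant. W20 NPC and EGFP NPC were kept in NPC medium with EGF and bFGF at 10 ng/ml each, and no Dox is named for them. Each group had 2 arrays. The labels name neither the promoter nor the vector that drives W20 or EGFP, nor whether N31 is 1 clone.

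The transcription factor NRF2 (gene Nfe2l2) is held in the cytoplasm and marked for degradation by Keap1. Oxidants and electrophiles that modify Keap1 free NRF2, which then binds antioxidant response elements with a small Maf protein and drives genes of glutathione synthesis, thioredoxin recycling, NADPH supply and heme breakdown. The aryl hydrocarbon receptor (Ahr) is a ligand-activated factor that drives Cyp1a1 and Cyp1b1 through xenobiotic response elements. Much of NRF2's activity is set by protein stability, which an array of RNA does not measure.

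All 8 arrays had 57.0% to 62.4% of their spots well above background, and the 2 arrays of a group correlated across genes at 0.999. The labels do not say that replicates were separate cultures, so every p-value reflects no more than array-to-array spread, and that spread can be technical. All NPC arrays lay on 1 slide and all 72 h arrays on another, so that slide, scan and medium cannot be told apart from the 72 h step. W20 and EGFP arrays of one stage shared a slide, with EGFP at positions 1 and 2 and W20 at positions 3 and 4 on both slides, so that position cannot be told apart from W20 against EGFP. Of the 13 neural progenitor markers, 12 were well above background on some array and 9 on all 8, among them Nes, Sox2, Vim and Pax6, while Olig2 was on none. In NPC, Hes5 was well above background on 0 arrays, and Fabp7 on 0 W20 arrays and 1 EGFP array. Sox1 was so on 5 of the 8 arrays. Of the 9 fibroblast and mesenchymal markers, 8 fell in W20 cells at each stage. Their summed linear level was 124 to 125 in W20 cells at 72 h against 194 in EGFP cells at 72 h, and 135 to 136 in W20 NPC against 189 to 213 in EGFP NPC. The 6 epithelial markers summed to 70.7 to 71.2 in W20 cells at 72 h against 99.3 to 102 in EGFP cells at 72 h, and to 242 to 256 in W20 NPC against 146 to 154 in EGFP NPC. These sums were carried by Krt8 and Krt18, which with W20 fell at 72 h by 0.41 and 0.68 in log2. At 72 h Cdh1 rose by 0.26 (limma adjusted p = 0.0144), and Krt19 and Epcam did not pass. Cldn4 was well above background on 0 arrays. Of 5 immune markers with a probe, Ptprc, Aif1, Cx3cr1 and Itgam were well above background on 0 of the 8 arrays and Csf1r on 1. Of 5 hepatocyte markers with a probe, Ttr, Apoa1 and Cyp3a11 were on 0, Alb on 2 and Afp on all 8, and Afp rose by 1.25 in W20 NPC (adjusted p = 3.75e-04). The part of the other cell-type markers in the members' differences was not tested, and in bulk RNA fewer cells of a type and less RNA per cell cannot be told apart.

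Levels below are log2 signal minus the 75th percentile of the array, from the brightest probe of each gene. Differences are on the same log2 scale, with their standard error (SE), from limma fitted on all 8 arrays. A difference passed when its p, adjusted over all 13617 genes by Benjamini-Hochberg, was under 0.05. Because replicates were close, most genes of the array passed, and a share of members near the share of all genes is not a result about the members. At 72 h, 26 of the 46 members passed between W20 and EGFP cells, 16 higher and 10 lower, where 52.8% of all genes passed, 28.5% higher and 24.3% lower. Their median difference was 0.05, against 0.03 for all genes. In NPC, 33 passed, 25 higher and 8 lower, where 55.5% of all genes passed, 31.8% higher and 23.7% lower. The members' median was 0.17, against 0.04 for all genes. From NPC to 72 h, 39 members passed in W20 cells, 15 higher and 24 lower, where 74.7% of all genes passed, 37.5% higher and 37.2% lower. In EGFP cells 33 passed, 20 higher and 13 lower, where 69.9% of all genes passed, 36.1% higher and 33.9% lower. The difference of the W20 effects between the stages, tested as an interaction, passed for 19 members, 4 higher at 72 h and 15 lower, where 30.9% of all genes passed, 14.1% higher and 16.8% lower. The higher ones made up 21.1% of these calls, and 11.1% under spike-in scaling, against 45.5% and 45.2% for all genes. Differences of at least 2-fold were few. At 72 h 4 members had one between W20 and EGFP cells, Akr1c18 and Akr1c12 higher and Cyp1a1 and Gpx3 lower (3.33% of all genes), and in NPC 1 did, Akr1c18 (4.07%). With the 72 h step 6 members had one in W20 cells (17.8% of all genes) and 3 in EGFP cells (13.3%), and in the interaction 1 did, Cyp1a1 (3.94%). The comparisons share arrays in pairs, so their counts are not independent of each other.

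The W20 against EGFP comparisons at 72 h and in NPC set different arrays against each other. They shared the spread estimated over all 8 arrays and the slide positions of W20 and EGFP, so they are not independent. 21 members passed in both, 13 of them higher at both stages, 6 lower at both and 2, Gpx1 and Gsta4, in opposite directions. Under every alternative setting and with any single array left out, 9 kept their call at both stages: Akr1c18, Gsr, Hmox1 and Sod2 were higher, and Cyp1b1, Gpx3, Gstm1, Gstm2 and Gstt1 lower. In NPC 14 higher and 7 lower members kept their call in this way, and at 72 h 7 higher and 7 lower. Neither passing at both stages nor keeping a call was counted over all genes. Of all genes, 52.8% passed at 72 h and 55.5% in NPC. These counts are therefore not a result about the members.

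**Figure D1:**
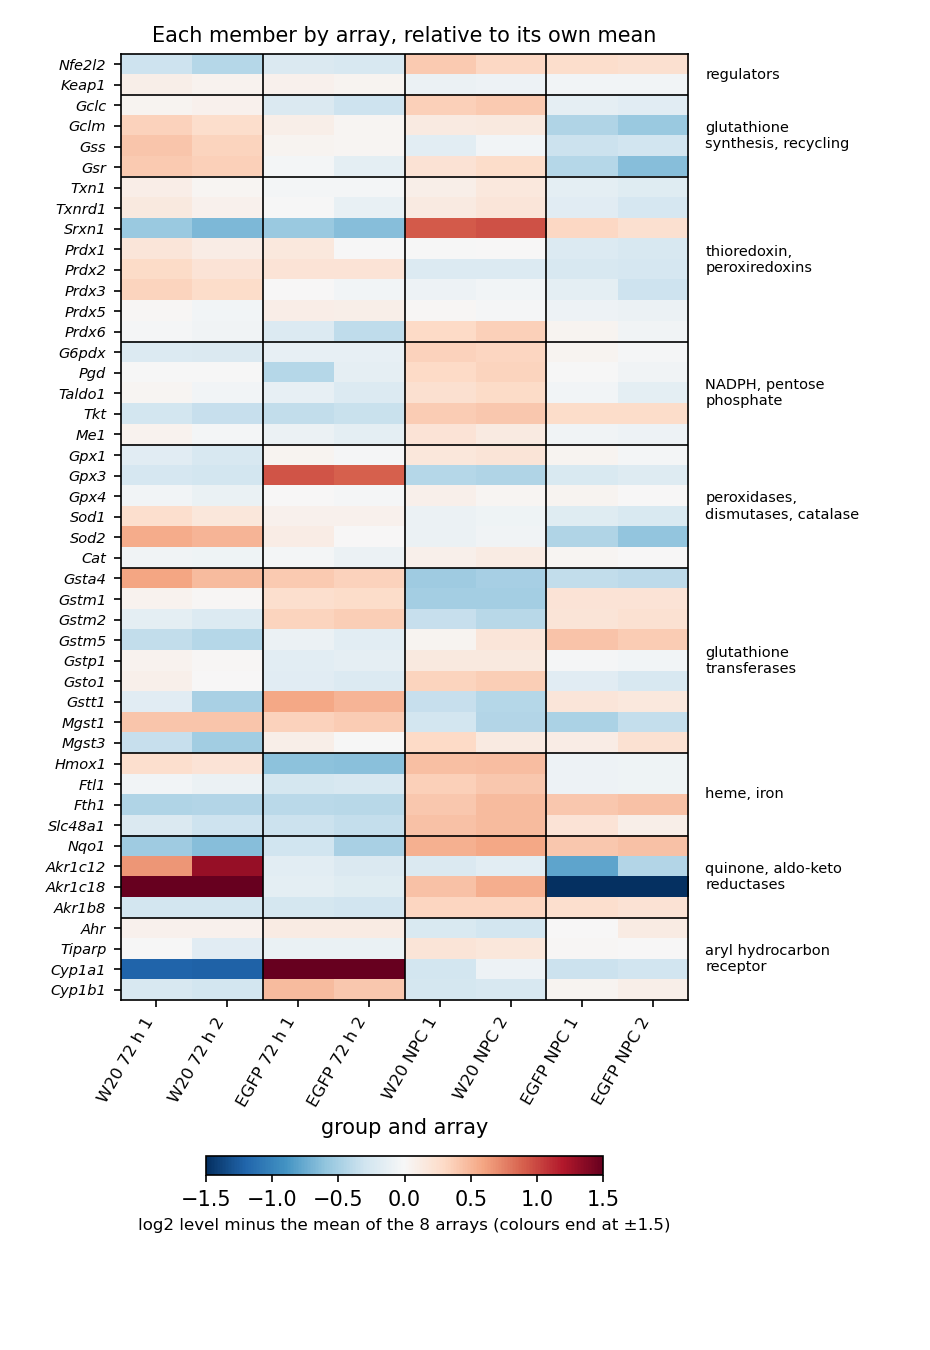
Level of each of the 46 members (rows, grouped by role) on each of the 8 arrays (columns, by group and replicate), as log2 level minus the gene's mean over the 8 arrays; colours end at ±1.5. The 2 arrays of a group look alike for most genes, and Akr1c18, Cyp1a1, Srxn1 and Gpx3 stand out among the groups.

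The members were bright genes, and brightness moved with the W20 comparison. When all tested genes were ranked by their mean level and cut into 10 bins of 1361 or 1362, 31 of the 46 members lay in the 3 brightest bins. The median W20 minus EGFP difference of all genes in the brightest bin was 0.10 at 72 h and 0.12 in NPC, and -0.00179 at 72 h and 0.01 in NPC in the fifth bin. With each member set against the median of its own bin, the members' median was -0.02 at 72 h, with 21 of 46 above their bin, and 0.08 in NPC, with 31 of 46 above. The share of higher calls depended on the scaling. Of the members called, 61.5% were higher at 72 h and 75.8% in NPC with the 75th percentile, and 40.7% and 60.7% with quantile scaling. Of all genes called, 53.9% were higher at 72 h and 57.3% in NPC with the 75th percentile, and 48.5% and 50.6% with quantile scaling. With spike-in scaling the members' shares were 43.8% at 72 h and 69.6% in NPC, against 39.6% and 49.9% for all genes. The part of brightness in the members' differences was not tested.

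**Figure D2:**
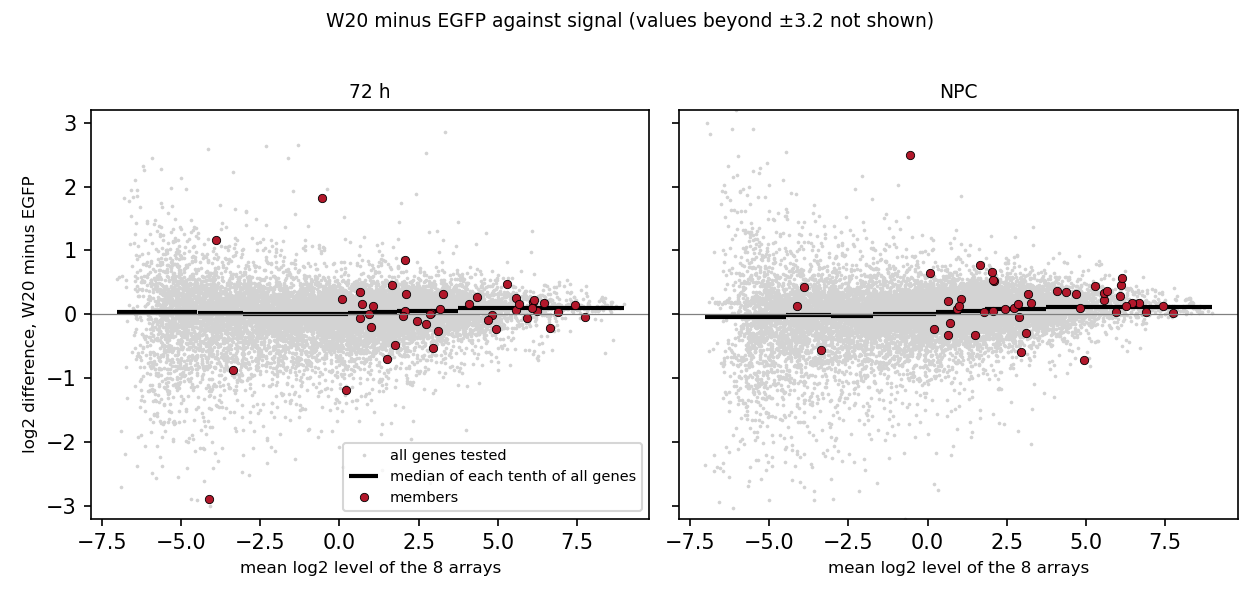
Difference between W20 and EGFP cells (y axis, log2) against mean level (x axis, log2) at 72 h and in NPC; grey points are all tested genes, black bars the median of each of 10 bins of them, red points the 46 members. The black bars climb to 0.10 at 72 h and 0.12 in NPC in the brightest bin, where 19 of the members lie; 3 genes at 72 h and 14 in NPC lie beyond the axis.

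Promoter windows from RefSeq (build GRCm38.p6, 250 bases before to 50 after the start site) were found for 40 of the 47 members, 50 windows in all. Gsr, Ahr, Slc48a1, Hmox1, Gsta4, Prdx6 and Gclc were not in the table. The antioxidant response element core TGACNNNGC, on either strand, was in 11 of the 50 windows (22.0%), against 12.4% of all 32851 windows. The xenobiotic response element core GCGTG was in 32 of the 50 (64.0%), against 32.4% of all windows, and overlapped the first motif in 2 of the 11. Nqo1, Akr1c18 and Akr1c12 held no TGACNNNGC in these windows. Of the 11 members with TGACNNNGC, Gclm, Txnrd1, G6pdx, Me1, Prdx1, Sod1, Srxn1 and Pgd were called higher in W20 NPC, Gstm5 was called lower, and Nfe2l2 and Mgst1 did not pass. In NPC 25 of all 46 members were called higher, and 31.8% of all genes. At 72 h Gclm, Txnrd1 and Sod1 were called higher and Gstm5 lower, and the others with the motif did not pass. The NPC calls of Prdx1, Sod1 and Pgd, and each of these 72 h calls, were lost with single arrays left out. Whether calls go with the motif was not tested. Below, Gclm, Txnrd1, G6pdx, Me1 and Prdx1 are shown for a motif before or across the start site in genes of glutathione synthesis, thioredoxin and NADPH. Cyp1a1 is shown as the member with the largest difference at 72 h. Capitals mark the match, which in Gclm, Txnrd1, G6pdx and Prdx1 lies on the opposite strand. Each runs 5′ to 3′ on the gene's strand and ends at the base before the start site, except Me1, which runs 3 bases past it. The stretches are chr3:122245407-122245556 (plus strand) for Gclm, chr10:82859056-82859205 (plus) for Txnrd1, chrX:74428881-74429030 (minus) for G6pdx, chr9:86695912-86696064 (minus) for Me1, chr4:116685449-116685598 (plus) for Prdx1 and chr9:57697463-57697612 (plus) for Cyp1a1.
Gclm: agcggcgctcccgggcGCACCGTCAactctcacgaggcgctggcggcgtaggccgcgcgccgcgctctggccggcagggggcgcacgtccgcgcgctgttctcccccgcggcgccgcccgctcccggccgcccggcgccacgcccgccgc
Txnrd1: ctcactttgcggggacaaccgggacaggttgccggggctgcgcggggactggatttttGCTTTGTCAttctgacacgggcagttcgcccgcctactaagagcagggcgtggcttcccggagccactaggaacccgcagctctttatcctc
G6pdx: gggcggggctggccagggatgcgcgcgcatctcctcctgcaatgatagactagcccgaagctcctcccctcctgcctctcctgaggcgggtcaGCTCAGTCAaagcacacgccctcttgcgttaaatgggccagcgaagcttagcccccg
Me1: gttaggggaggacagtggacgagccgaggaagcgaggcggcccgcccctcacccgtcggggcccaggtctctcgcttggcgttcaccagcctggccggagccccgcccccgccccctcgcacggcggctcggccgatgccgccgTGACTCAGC
Prdx1: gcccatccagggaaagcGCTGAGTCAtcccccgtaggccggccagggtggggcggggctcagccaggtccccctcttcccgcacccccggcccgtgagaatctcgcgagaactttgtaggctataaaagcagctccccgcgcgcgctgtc
Cyp1a1: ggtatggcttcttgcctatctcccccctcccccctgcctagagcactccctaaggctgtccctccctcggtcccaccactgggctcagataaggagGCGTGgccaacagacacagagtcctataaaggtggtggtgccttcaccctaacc
Counted from the start site, the first base of the match is at -134 in Gclm, -92 in Txnrd1, -57 in G6pdx, -6 in Me1, -133 in Prdx1 and -54 in Cyp1a1. Txnrd1 has 3 windows and Me1 has 2 in the table, and the one that holds the motif is shown. These are matches of letters, not shown to be sites in use.

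Neither regulator passed between W20 and EGFP cells. Nfe2l2 was at 2.43 and 2.31 in W20 cells at 72 h, 2.52 and 2.50 in EGFP cells at 72 h, 3.13 and 3.05 in W20 NPC and 3.00 and 2.98 in EGFP NPC. The W20 arrays were below both EGFP arrays at 72 h and above them in NPC, by differences of -0.14 ± 0.051 (SE, adjusted p = 0.0568) and 0.10 ± 0.051 (adjusted p = 0.154). Both 72 h groups were below every NPC array, and Nfe2l2 fell by 0.72 in W20 cells and by 0.48 in EGFP cells (limma adjusted p = 4.65e-05 and 3.43e-04). Keap1, which targets NRF2 for degradation, lay between 2.80 and 2.97 on all 8 arrays. It rose by 0.15 ± 0.030 from NPC to 72 h in W20 cells (adjusted p = 0.0041). The 72 h difference in EGFP cells was 0.09 (adjusted p = 0.035), which no longer passed without either EGFP array of either stage or without either W20 NPC array (adjusted p 0.0619 to 0.149).

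All 4 genes of glutathione synthesis and recycling passed as higher in W20 cells at both stages. Higher calls made up 28.5% of all genes at 72 h and 31.8% in NPC. Gclm, the modifier subunit of the rate-limiting ligase of glutathione synthesis, was at 0.43 and 0.34 in W20 cells at 72 h and 0.18 and 0.12 in EGFP cells at 72 h, and at 0.22 and 0.23 in W20 NPC and -0.36 and -0.48 in EGFP NPC. The groups did not overlap at either stage, and the EGFP NPC arrays were the lowest of all 8. The W20 minus EGFP difference was 0.64 ± 0.053 in NPC (adjusted p = 3.60e-04) and 0.24 ± 0.053 at 72 h (adjusted p = 0.0121). At 72 h it did not pass without the first W20 array or the second EGFP array (adjusted p = 0.0572 and 0.0638). The W20 effect on Gclm was smaller at 72 h than in NPC by 0.40 (interaction, adjusted p = 0.0121).

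Gclc, the catalytic subunit of the same ligase, was at 2.13 and 2.16 in W20 cells at 72 h, 1.87 and 1.78 in EGFP cells at 72 h, 2.45 and 2.48 in W20 NPC and 1.96 and 1.92 in EGFP NPC. Both W20 arrays were above both EGFP arrays at each stage. The difference was 0.32 ± 0.042 at 72 h (adjusted p = 0.00191, and 0.0536 with spike-in scaling) and 0.53 ± 0.042 in NPC (adjusted p = 3.27e-04). Gsr, which reduces oxidised glutathione with NADPH, was at 2.05 and 2.02 in W20 cells at 72 h, 1.63 and 1.52 in EGFP cells at 72 h, 1.87 and 1.93 in W20 NPC and 1.23 and 1.02 in EGFP NPC. It rose by 0.46 ± 0.077 at 72 h (adjusted p = 0.00429) and by 0.77 ± 0.077 in NPC (adjusted p = 6.18e-04) in W20 cells, the largest difference of these 4 genes at each stage. Gss, which joins glycine in the last step of glutathione synthesis, rose by 0.34 ± 0.049 at 72 h (adjusted p = 0.00243). Its NPC difference of 0.20 (adjusted p = 0.0148) was lost without either EGFP NPC array or the second W20 NPC array (adjusted p 0.0506 to 0.0681). From NPC to 72 h Gss rose in both lines, by 0.48 with W20 and 0.34 with EGFP. Gclc fell by 0.32 with W20 (adjusted p = 7.42e-04), and its difference with EGFP was -0.11 (adjusted p = 0.054).

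**Figure D3:**
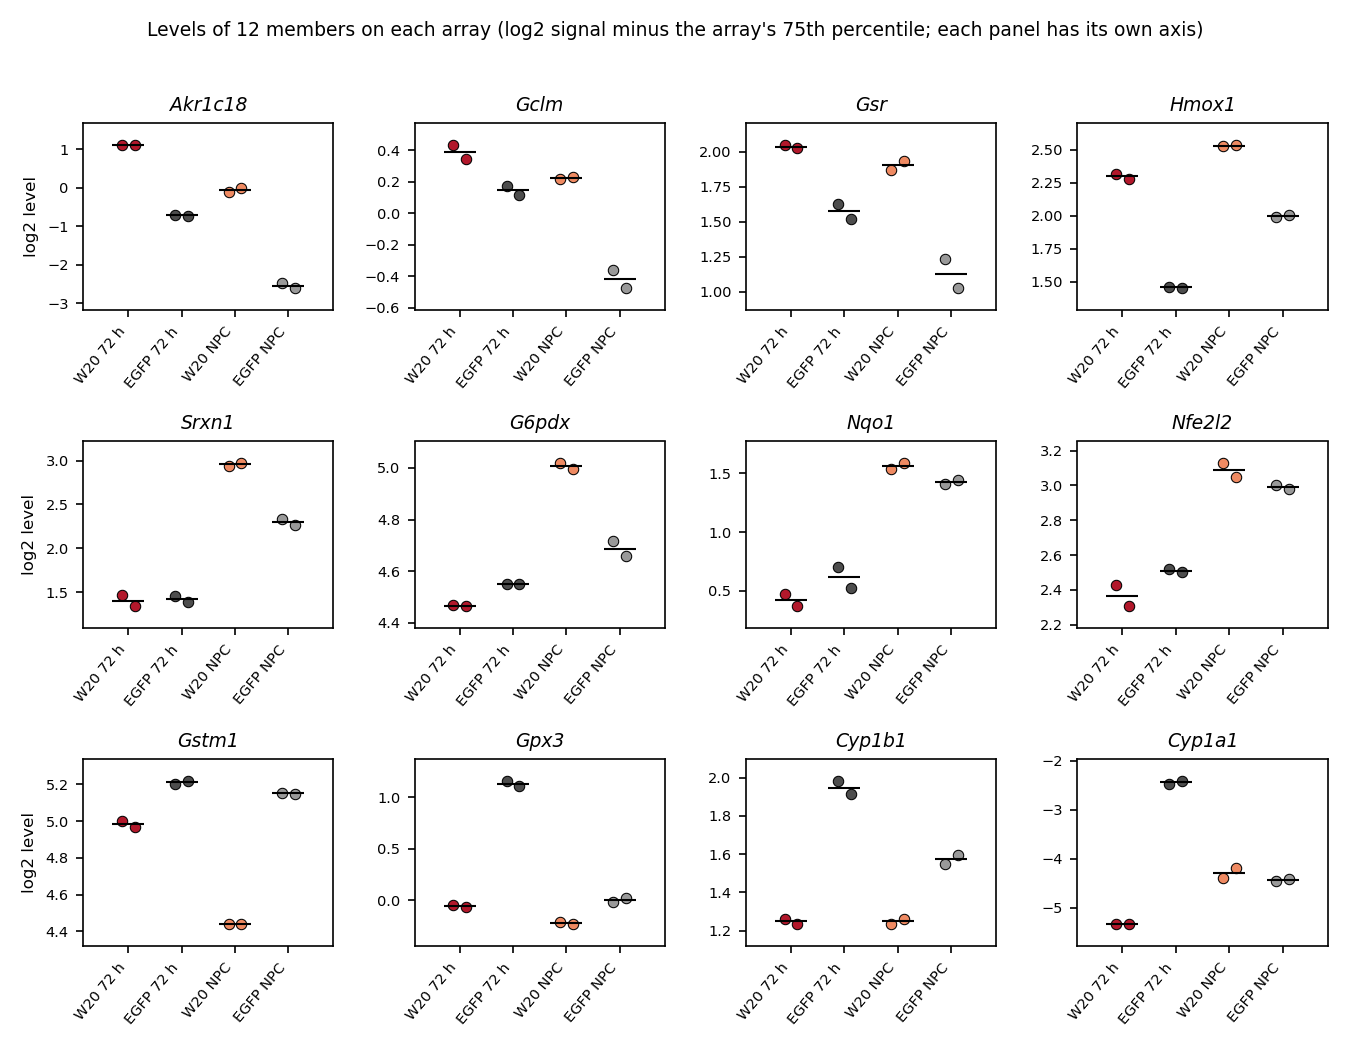
Log2 level (y axis, each panel with its own range) of 12 members on the 2 arrays of each group (points) with the group mean (line). With W20, Akr1c18, Gclm, Gsr and Hmox1 lay above EGFP at both stages, Gstm1, Gpx3 and Cyp1b1 lower, and Cyp1a1 stood apart at 72 h, where the W20 probe was not well above background.

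Of the 8 thioredoxin and peroxiredoxin genes, 5 passed as higher in W20 NPC and none as lower, against 3 higher and 1 lower at 72 h. Among all genes, 31.8% were higher and 23.7% lower in NPC, and 28.5% and 24.3% at 72 h. Srxn1, the sulfiredoxin that repairs over-oxidised peroxiredoxins, was at 1.46 and 1.34 in W20 cells at 72 h and 1.46 and 1.39 in EGFP cells at 72 h, and at 2.94 and 2.97 in W20 NPC and 2.33 and 2.26 in EGFP NPC. The 72 h groups overlapped, and in NPC both W20 arrays were above both EGFP arrays. In NPC it rose by 0.66 ± 0.054 in W20 cells (adjusted p = 3.58e-04), while the 72 h difference was -0.02 ± 0.054 (adjusted p = 0.783). The effects differed by -0.68 ± 0.077 (interaction, adjusted p = 0.00226). From NPC to 72 h Srxn1 fell by 1.55 in W20 cells and by 0.88 in EGFP cells (adjusted p = 2.82e-06 and 3.78e-05).

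Txnrd1, the cytosolic thioredoxin reductase, was at 4.24 and 4.16 in W20 cells at 72 h, 4.08 and 3.98 in EGFP cells at 72 h, 4.23 and 4.26 in W20 NPC and 3.91 and 3.84 in EGFP NPC. It rose by 0.37 ± 0.053 in W20 NPC (adjusted p = 0.00228), and its substrate Txn1, thioredoxin, by 0.29 ± 0.039 (adjusted p = 0.00189). Their 72 h differences were 0.17 (adjusted p = 0.0432) and 0.09 (adjusted p = 0.0919). The Txnrd1 call at 72 h was lost without any single array other than the first EGFP array of that stage (adjusted p 0.0519 to 0.186). Prdx3, the mitochondrial peroxiredoxin, was at 3.60 and 3.54 in W20 cells at 72 h and at 3.28 and 3.24 in EGFP cells at 72 h. It rose by 0.32 ± 0.059 there (adjusted p = 0.0067), and its NPC difference was 0.17 (adjusted p = 0.0511).

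Prdx6, which also has phospholipase activity, passed at both stages, by 0.26 at 72 h and 0.33 in NPC. Its calls were lost at 72 h without the second EGFP array or either W20 array (adjusted p 0.0642 to 0.0967) and in NPC without the second EGFP or second W20 array (adjusted p = 0.0530 and 0.0509). Prdx1 passed in NPC by 0.22 (adjusted p = 0.0241), which was lost without any 1 of the 4 NPC arrays (adjusted p 0.0639 to 0.105). Prdx5 was the only one of the 8 to pass as lower, by -0.11 at 72 h (adjusted p = 0.0426). That call was lost without any single array other than the first W20 array of that stage (adjusted p 0.0694 to 0.156). Prdx2 differed by 0.04 at each stage, with adjusted p of 0.385 at 72 h and 0.382 in NPC, but it rose by 0.45 from NPC to 72 h in both lines (adjusted p = 9.10e-05 with W20 and 1.17e-04 with EGFP).

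Of the 5 NADPH genes, those of the pentose phosphate pathway and malic enzyme, all passed as higher in W20 NPC and none passed at 72 h. Higher calls made up 31.8% of all genes in NPC and 28.5% at 72 h. The 72 h differences of Pgd, Taldo1, Me1 and Tkt were 0.28, 0.16, 0.13 and 0.05. The interaction passed for 1 of the 5, G6pdx, and for 30.9% of all genes. G6pdx, glucose-6-phosphate dehydrogenase, which commits glucose to the pathway, was at 4.47 and 4.46 in W20 cells at 72 h and 4.55 on both EGFP arrays at 72 h, and at 5.02 and 4.99 in W20 NPC and 4.72 and 4.66 in EGFP NPC. The W20 arrays were the highest in NPC and the lowest at 72 h. G6pdx rose by 0.32 ± 0.032 in W20 NPC (adjusted p = 6.25e-04), and the 72 h difference was -0.08 ± 0.032 (adjusted p = 0.0747). The 2 effects differed by -0.40 ± 0.045 (interaction, adjusted p = 0.00219). Taldo1, transaldolase, was at 5.91 and 5.96 in W20 NPC and at 5.63 and 5.52 in EGFP NPC, and rose by 0.36 ± 0.056 (adjusted p = 0.00304). Me1, the cytosolic malic enzyme, rose in W20 NPC by 0.24 ± 0.045 (adjusted p = 0.0063, and 0.0705 with spike-in scaling).

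Pgd, the second dehydrogenase of the pathway, and Tkt, transketolase, differed in NPC by 0.35 (adjusted p = 0.0224) and 0.12 (adjusted p = 0.0266). Neither survived the omission of a single NPC array, whichever of the 4 it was, with adjusted p of 0.0634 to 0.0973 for Pgd and 0.0777 to 0.116 for Tkt. A dimmer second probe of Pgd gave 0.27 ± 0.033 in NPC (adjusted p = 0.00143). For the 72 h step that probe gave -0.13 in W20 cells and 0.08 in EGFP cells, against -0.33 and -0.25 with the brighter one. A dimmer second probe of Tkt gave -0.15 ± 0.096 in NPC (adjusted p = 0.241). Probes for Tkt also disagreed on the 72 h step: the brighter one fell by 0.70 in W20 cells and by 0.63 in EGFP cells, and the dimmer one gave -0.04 and -0.19, neither of which passed. Against NPC, all 5 genes passed as lower at 72 h in W20 cells, from -0.16 for Me1 to -0.70 for Tkt, and 2 of 5 did in EGFP cells, G6pdx by -0.14 and Tkt. Among all genes, 37.2% were lower with this step in W20 cells and 33.9% in EGFP cells. In W20 cells Me1 did not pass without the first NPC or second 72 h array (adjusted p = 0.0966 and 0.0849), nor Pgd without any 1 of the 4 W20 arrays (adjusted p 0.0619 to 0.0781). In EGFP cells G6pdx did not pass without the first NPC array (adjusted p = 0.0512).

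Among peroxidases, dismutases and catalase, Gpx3 and Sod2 moved most. Gpx3, the secreted glutathione peroxidase, was at -0.04 and -0.06 in W20 cells at 72 h and 1.15 and 1.11 in EGFP cells at 72 h, and at -0.21 and -0.23 in W20 NPC and -0.02 and 0.02 in EGFP NPC. The EGFP arrays at 72 h stood alone above all others. With W20, Gpx3 fell by 1.18 at 72 h (SE 0.033, adjusted p = 2.87e-05) and by 0.23 in NPC (adjusted p = 0.00247). It rose by 1.13 ± 0.033 from NPC to 72 h in EGFP cells (adjusted p = 2.76e-06) and by 0.17 ± 0.033 in W20 cells (adjusted p = 0.00453). The step in W20 cells did not pass with the normexp background correction and with spike-in scaling. The W20 effects differed by -0.96 ± 0.047 (interaction, adjusted p = 2.46e-04).

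Sod2, the mitochondrial superoxide dismutase, was at 5.85 and 5.79 in W20 cells at 72 h, 5.40 and 5.29 in EGFP cells at 72 h, 5.19 and 5.24 in W20 NPC and 4.83 and 4.70 in EGFP NPC. The 4 groups did not overlap. With W20 it rose by 0.48 ± 0.062 at 72 h (adjusted p = 0.00182) and by 0.45 ± 0.062 in W20 NPC (adjusted p = 0.00195), and with the 72 h step by 0.61 in W20 cells and 0.58 in EGFP cells. Sod1, the cytosolic dismutase, differed by 0.15 at 72 h (adjusted p = 0.0226) and 0.13 in NPC (adjusted p = 0.0313). Those calls were lost at 72 h without either EGFP array or the first W20 array (adjusted p 0.0820 to 0.0907), and in NPC without any single array other than the 2 W20 arrays of 72 h (adjusted p 0.0552 to 0.141). Quantile scaling turned the NPC value to -0.00945 (adjusted p = 0.796).

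Gpx1, the abundant cytosolic glutathione peroxidase, had opposite differences at the 2 stages. It was at 6.49 and 6.42 in W20 cells at 72 h, 6.70 and 6.63 in EGFP cells at 72 h, 6.83 and 6.85 in W20 NPC and 6.69 and 6.63 in EGFP NPC. The W20 arrays were the lowest at 72 h and the highest in NPC. The differences were -0.21 ± 0.044 at 72 h (adjusted p = 0.00938) and 0.18 ± 0.044 in NPC (adjusted p = 0.0159), and they differed from each other by -0.39 ± 0.062 (interaction, adjusted p = 0.00689). The 72 h call was lost without the first EGFP array (adjusted p = 0.0510), and the NPC call without either W20 array or the second EGFP array (adjusted p 0.0521 to 0.0830). Gpx4, which reduces lipid peroxides, and Cat, catalase, did not pass at either stage, with differences between -0.06 and 0.09.

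Of the 9 glutathione transferases, more were lower than higher in W20 cells, 5 lower at each stage against 3 higher at 72 h and 2 higher in NPC. Lower calls made up 24.3% of all genes at 72 h and 23.7% in NPC, and higher calls 28.5% and 31.8%. The mu class genes Gstm1, Gstm2 and Gstm5, which share a cluster on chromosome 3, were lower at both. Gstm1 was at 5.0 and 4.97 in W20 cells at 72 h, 5.20 and 5.22 in EGFP cells at 72 h, 4.44 on both W20 NPC arrays and 5.15 on both EGFP NPC arrays. The W20 NPC arrays were far below all others. Gstm1 fell by 0.23 in W20 cells at 72 h (SE 0.028, adjusted p = 0.0015) and by 0.71 in W20 NPC (SE 0.028, adjusted p = 6.36e-05). The effect was weaker at 72 h by 0.49 ± 0.040 (interaction, adjusted p = 8.07e-04). It rose by 0.55 ± 0.028 from NPC to 72 h in W20 cells (adjusted p = 1.23e-05), against 0.06 in EGFP cells (adjusted p = 0.107).

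Gstm2 was at 2.81 and 2.75 in W20 cells at 72 h, 3.29 and 3.32 in EGFP cells at 72 h, 2.61 and 2.54 in W20 NPC and 3.15 and 3.18 in EGFP NPC. With W20 it fell by 0.53 at 72 h (adjusted p = 2.82e-04) and by 0.59 in NPC (adjusted p = 1.97e-04), and the groups did not overlap. Gstm5 fell by 0.30 in W20 NPC (adjusted p = 0.00662). Its 72 h difference of -0.27 (adjusted p = 0.0104) was lost without the first EGFP or second W20 array (adjusted p = 0.0561 and 0.0501). Close paralogs of this class may share probe signal, which was not tested.

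Gstt1, a theta class transferase, was a dim probe, at -3.52 and -3.84 in W20 cells at 72 h, -2.77 and -2.84 in EGFP cells at 72 h, -3.70 and -3.78 in W20 NPC and -3.17 and -3.19 in EGFP NPC. The groups did not overlap at either stage. It fell by 0.87 (SE 0.103, adjusted p = 0.00126) at 72 h and by 0.56 (SE 0.103, adjusted p = 0.00551) in NPC in W20 cells. At 72 h Mgst3, a microsomal transferase, fell by 0.47 with W20 (adjusted p = 0.00603), with arrays at 1.42 and 1.25 against 1.86 and 1.76 in EGFP cells. In NPC the Mgst3 groups overlapped, and the difference was 0.04 (adjusted p = 0.719).

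Gsto1, an omega class transferase that also reduces dehydroascorbate, went the other way. Its arrays were at 6.22 and 6.16 in W20 cells at 72 h, 5.97 and 5.95 in EGFP cells at 72 h, 6.48 and 6.52 in W20 NPC and 5.97 and 5.91 in EGFP NPC. It rose by 0.23 ± 0.040 at 72 h (adjusted p = 0.00513) and by 0.56 ± 0.040 in NPC (adjusted p = 2.25e-04) in W20 cells, and the 72 h call was lost with spike-in scaling (adjusted p = 0.101). Gstp1, the pi class gene, passed by 0.18 at each stage, and under quantile scaling the values were 0.02 at 72 h and 0.06 in NPC, neither of which passed. Gsta4, which conjugates the lipid peroxidation product 4-hydroxynonenal, had differences of 0.16 at 72 h and -0.14 in NPC. Both Gsta4 calls were lost with single arrays left out: at 72 h without either EGFP array or the first W20 array (adjusted p 0.0623 to 0.121), and in NPC without any single array other than the W20 arrays of 72 h (adjusted p 0.0721 to 0.184).

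From NPC to 72 h, 2 transferases rose in both lines by more than the rest. Gsta4 was at 1.30 and 1.18 in W20 cells at 72 h and 1.10 and 1.05 in EGFP cells at 72 h, against 0.17 and 0.21 in W20 NPC and 0.34 and 0.31 in EGFP NPC. It rose by 1.05 ± 0.046 with W20 and 0.75 ± 0.046 with EGFP (adjusted p = 6.71e-06 and 3.74e-05). Mgst1, microsomal transferase 1, rose by 0.77 ± 0.067 in each line (adjusted p = 1.13e-04 with W20 and 1.45e-04 with EGFP), and W20 and EGFP cells differed by 0.05 at each stage (adjusted p = 0.539 at 72 h and 0.542 in NPC). Gstm5 fell by 0.50 with W20 and by 0.53 with EGFP (adjusted p = 3.80e-04 and 3.57e-04).

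**Figure D4:**
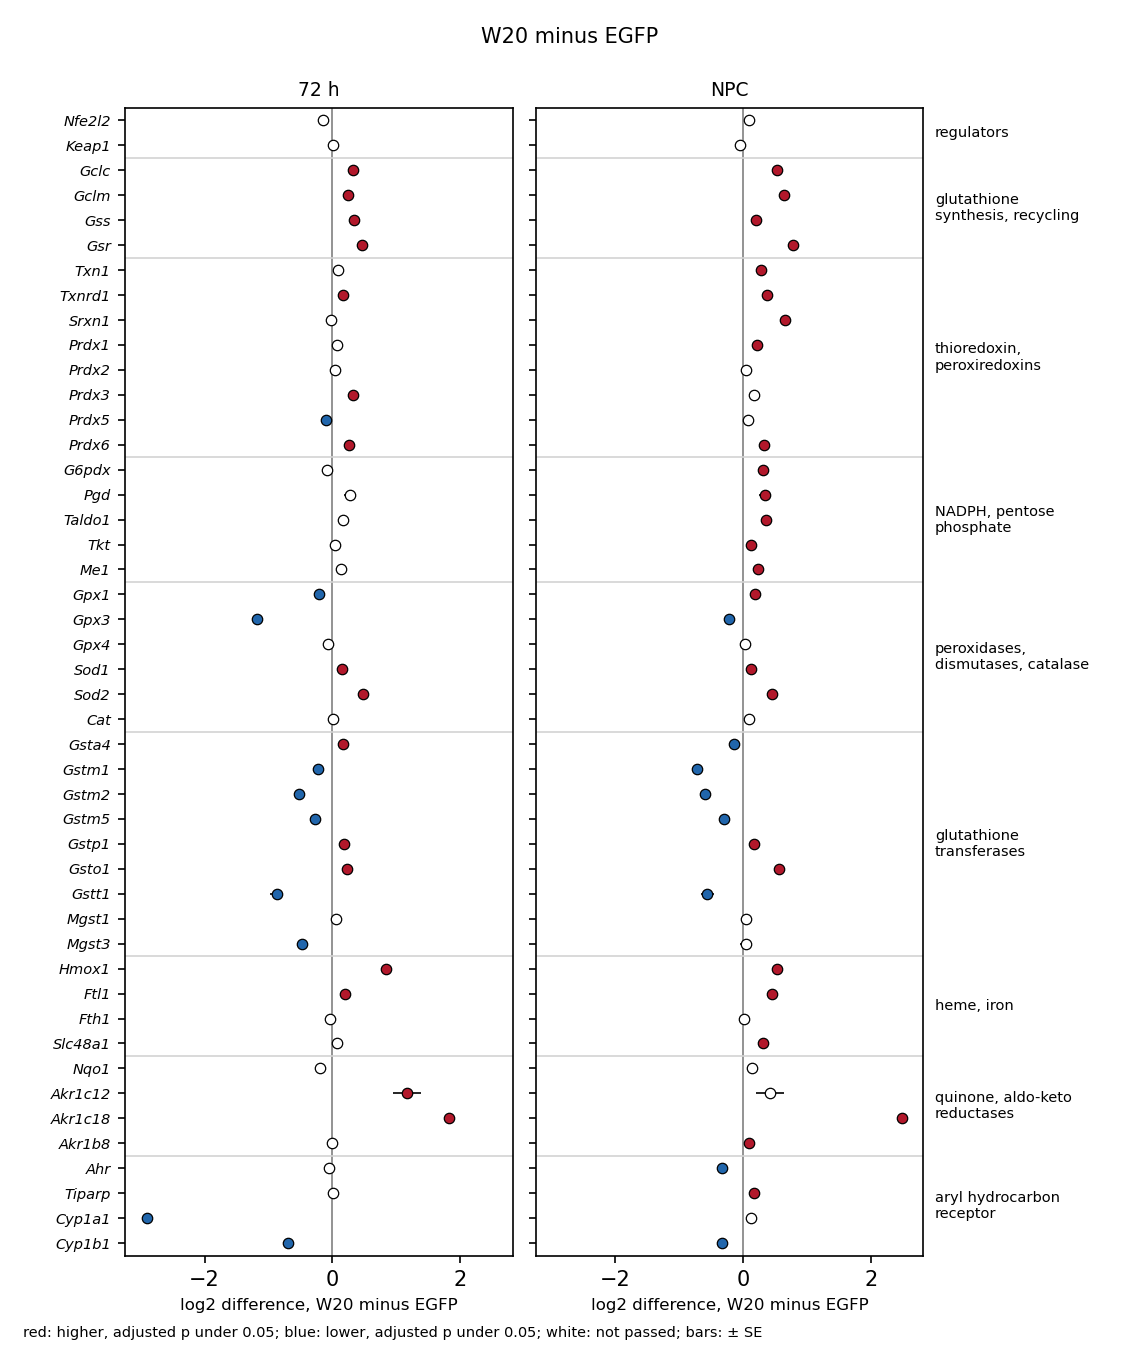
Difference between W20 and EGFP cells for each member (x axis, log2, ± SE), at 72 h (left) and in NPC (right); red and blue points passed as higher and lower. Akr1c18 lies at 1.82 and 2.49 and Cyp1a1 at -2.89 and 0.13; the W20 value of Cyp1a1 at 72 h was not well above background.

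Of the 4 heme and iron members, Hmox1 had the largest W20 difference at each stage. It encodes heme oxygenase 1, which breaks heme down to iron, carbon monoxide and biliverdin. Hmox1 was at 2.32 and 2.28 in W20 cells at 72 h, 1.46 and 1.45 in EGFP cells at 72 h, 2.53 and 2.54 in W20 NPC and 1.99 and 2.01 in EGFP NPC. Replicates were within 0.04 of each other in every group, and no groups overlapped. It rose by 0.84 ± 0.029 at 72 h (adjusted p = 4.03e-05) and by 0.53 ± 0.029 in NPC (adjusted p = 1.27e-04) in W20 cells. Against NPC, Hmox1 fell by 0.23 in W20 cells and by 0.55 in EGFP cells, and the W20 effects differed by 0.31 ± 0.041 (interaction, adjusted p = 0.00383), which was lost with spike-in scaling (adjusted p = 0.116).

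Ftl1, the ferritin light chain, was at 6.06 and 6.02 in W20 cells at 72 h, 5.84 and 5.86 in EGFP cells at 72 h, 6.46 and 6.51 in W20 NPC and 6.02 and 6.03 in EGFP NPC. It rose by 0.46 ± 0.033 in W20 NPC (adjusted p = 2.37e-04) and by 0.19 ± 0.033 at 72 h (adjusted p = 0.00479). With quantile scaling the 72 h value was 0.08 (adjusted p = 0.0699). Fth1, the heavy chain, was at 7.29 and 7.31 in W20 cells at 72 h and 7.35 and 7.34 in EGFP cells at 72 h, against 8.15 and 8.22 in W20 NPC and 8.15 and 8.18 in EGFP NPC. W20 and EGFP cells differed by -0.04 at 72 h (adjusted p = 0.379) and 0.02 in NPC (adjusted p = 0.71), and quantile scaling gave -0.15 in NPC (adjusted p = 0.0194). Slc48a1, which carries heme out of endosomes and lysosomes, rose by 0.32 ± 0.055 in W20 NPC (adjusted p = 0.00457), and the 72 h difference was 0.08 (adjusted p = 0.291). All 4 heme and iron genes fell from NPC to 72 h in both lines, Fth1 by 0.88 with W20 and by 0.82 with EGFP, and Slc48a1 by 0.72 with W20 and by 0.48 with EGFP. Lower calls with this step made up 37.2% of all genes with W20 and 33.9% with EGFP. In EGFP cells the fall of Ftl1 did not pass with median or spike-in scaling (adjusted p 0.0655 to 0.0837).

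Akr1c18, the aldo-keto reductase that inactivates progesterone in mice, had the largest W20 difference of any member in NPC. Its arrays were at 1.11 and 1.11 in W20 cells at 72 h, -0.70 and -0.73 in EGFP cells at 72 h, -0.11 and -0.01 in W20 NPC and -2.48 and -2.61 in EGFP NPC. No groups overlapped, and W20 NPC were above EGFP cells at 72 h. Akr1c18 rose 3.54-fold at 72 h (log2 1.82 ± 0.058, adjusted p = 3.55e-05) and 5.61-fold in NPC (log2 2.49 ± 0.058, adjusted p = 5.34e-05) in W20 cells. It also rose from NPC to 72 h, by 1.17 with W20 and 1.83 with EGFP, and the W20 effect was smaller at 72 h by 0.67 (interaction, adjusted p = 0.00296).

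Akr1c12, a neighbour of Akr1c18 on chromosome 13, was a dim probe with spread replicates. It was at -3.23 and -2.60 in W20 cells at 72 h, -4.06 and -4.11 in EGFP cells at 72 h, -4.12 and -4.06 in W20 NPC and -4.69 and -4.33 in EGFP NPC. The 2 W20 arrays of 72 h were the highest. At 72 h it rose by 1.17 ± 0.217 with W20 (adjusted p = 0.00644). The NPC difference was 0.42 ± 0.217 (adjusted p = 0.151). A second, dimmer probe of Akr1c12 was well above background on 1 EGFP array of 72 h only, and it was not tested. Cross-hybridisation between these close paralogs was not tested.

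Nqo1, the quinone reductase often used as a readout of NRF2, did not pass between W20 and EGFP cells. Its arrays were at 0.47 and 0.37 in W20 cells at 72 h, 0.70 and 0.52 in EGFP cells at 72 h, 1.54 and 1.59 in W20 NPC and 1.41 and 1.44 in EGFP NPC. The W20 arrays were below both EGFP arrays at 72 h, by a difference of -0.20 ± 0.069 (adjusted p = 0.0572), and above them in NPC, by 0.14 ± 0.069 (adjusted p = 0.145). Against NPC, Nqo1 fell by 1.14 in W20 cells (adjusted p = 2.43e-05) and by 0.81 in EGFP cells (adjusted p = 1.36e-04). Akr1b8, an aldo-keto reductase of aldehydes, fell with the same step by 0.60 and by 0.50 (adjusted p = 9.84e-06 with W20 and 2.83e-05 with EGFP). Its W20 difference in NPC was 0.09 (adjusted p = 0.0399), which was lost without any 1 of the 8 arrays (adjusted p 0.0557 to 0.171) and was -0.06 with quantile scaling (adjusted p = 0.13).

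Of the 4 aryl hydrocarbon receptor genes, 2 passed at 72 h, both lower with W20, and 3 in NPC, 1 higher and 2 lower. The share of all genes called was 52.8% at 72 h and 55.5% in NPC. Cyp1a1, the cytochrome P450 that the receptor induces most strongly, was at -5.34 on both W20 arrays at 72 h, where it was not well above background, and at -2.47 and -2.42 in EGFP cells at 72 h. In NPC it was at -4.40 and -4.20 with W20 and -4.45 and -4.42 with EGFP. The EGFP arrays at 72 h were far above all others, and the NPC groups lay side by side without overlap. Set against the lowest signal well above background, or the probe's own where higher, Cyp1a1 at 72 h was lower with W20 than with EGFP by at least 6.69-fold (limma log2 difference -2.89 ± 0.068, adjusted p = 2.14e-05). With the normexp background correction the log2 difference was -1.30 (adjusted p = 6.72e-05), so the size of the fold depends on how background is handled. The NPC difference was 0.13 ± 0.068 (adjusted p = 0.159), and the effects differed by -3.02 ± 0.096 (interaction, adjusted p = 1.14e-04). From NPC to 72 h Cyp1a1 rose by 1.99 ± 0.068 in EGFP cells (adjusted p = 4.30e-06) and in W20 cells was lower by at least 1.85-fold (log2 difference -1.04 ± 0.068, adjusted p = 3.44e-05). That last call was lost with the normexp background correction, at an adjusted p of 0.0616.

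Cyp1b1, a second P450 under the receptor, was at 1.26 and 1.23 in W20 cells at 72 h, 1.98 and 1.91 in EGFP cells at 72 h, 1.24 and 1.26 in W20 NPC and 1.55 and 1.59 in EGFP NPC. The W20 groups were level with each other across the stages, with a difference of -0.00175 (adjusted p = 0.969), while EGFP cells rose by 0.38 ± 0.038 (adjusted p = 2.68e-04). Cyp1b1 fell in W20 cells by 0.70 at 72 h (adjusted p = 1.08e-04) and by 0.32 in NPC (adjusted p = 0.00106), and the W20 effects differed by -0.38 ± 0.053 (interaction, adjusted p = 0.00472), which was lost with spike-in scaling (adjusted p = 0.0563). Ahr itself was at 0.71 on both W20 arrays and 0.76 on both EGFP arrays at 72 h, and at 0.41 and 0.36 in W20 NPC and 0.65 and 0.77 in EGFP NPC. It fell by 0.32 in W20 NPC (adjusted p = 0.0022), and at 72 h the difference was -0.05 (adjusted p = 0.371). Tiparp, a target that feeds back on the receptor, passed by 0.17 in NPC (adjusted p = 0.0479), which was lost without any single array other than the W20 arrays of 72 h (adjusted p 0.0773 to 0.157).

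**Figure D5:**
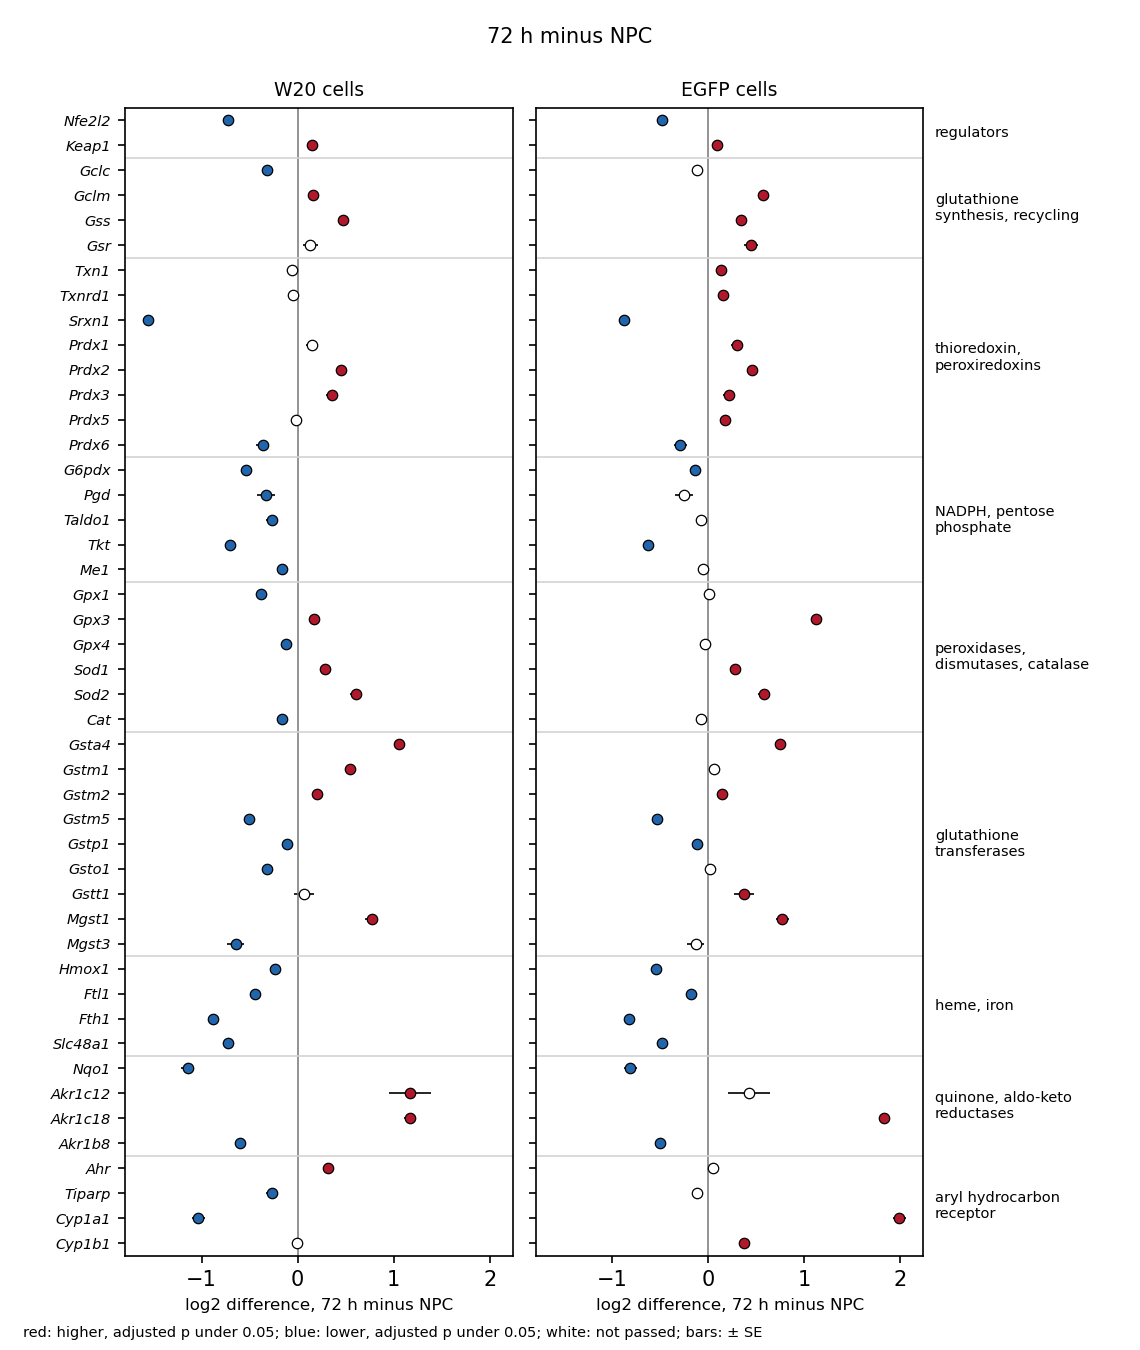
Difference between 72 h and NPC for each member (x axis, log2, ± SE), in W20 cells (left) and EGFP cells (right); red and blue points passed as higher and lower. Srxn1 lies at -1.55 and -0.88, and Cyp1a1 at -1.04 with W20, where its 72 h probe was not well above background, and at 1.99 with EGFP.

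Further genes of these pathways were counted from lists fixed by name, each tested in the same fit, and their shares are to be read against the 52.8% of all genes called at 72 h and the 55.5% in NPC. Among 13 partners and controllers of NRF2, W20 cells had 6 higher and 1 lower at 72 h, and 6 higher and 3 lower in NPC, 53.8% and 69.2% called. Mafk, a small Maf partner of NRF2, rose by 0.60 in W20 NPC, and Bach1, a repressor that competes at the same elements, fell by 0.27. Maff, another small Maf, rose by 0.53 at 72 h. Nfe2, a relative of NRF2 first known from red blood cells, rose by 0.97 with W20 at 72 h (adjusted p = 9.98e-04). In NPC it was dim with EGFP, at -5.07 and -5.16, and not well above background with W20. There it was lower with W20 by at least 1.24-fold (limma log2 difference -1.57 ± 0.108, adjusted p = 2.04e-04). Over the alternative settings that log2 difference ranged from -1.63 to -0.44. Of 20 other genes often listed as NRF2 targets, 8 rose and 6 fell at 72 h, and 9 rose and 3 fell in NPC, 70% and 60% called. Slc7a11, the cystine importer that feeds glutathione synthesis, was at log2 levels of -1.65 and -1.52 in W20 cells at 72 h against -4.02 and -4.03 in EGFP cells at 72 h, and -0.21 and -0.17 in W20 NPC against -0.73 and -0.77 in EGFP NPC. With W20 it rose by 2.44 ± 0.050 at 72 h (adjusted p = 2.14e-05). From NPC to 72 h it fell by 3.28 in EGFP cells (adjusted p = 4.08e-07). The Slc7a11 probe was dim in EGFP cells at 72 h. Over the alternative settings the 72 h difference ranged from 1.53 to 2.61, and the step in EGFP cells from -3.66 to -2.23.

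Other genes of glutathione and thioredoxin were mixed: of 26 tested, 11 were higher and 9 lower in W20 cells at 72 h, and 11 higher and 8 lower in W20 NPC, 76.9% and 73.1% called. Chac1, which degrades glutathione, was at 4.01 and 3.96 in W20 cells at 72 h, 1.23 and 1.02 in EGFP cells at 72 h, 4.69 and 4.59 in W20 NPC and 3.65 and 3.44 in EGFP NPC. It rose by 2.86 ± 0.097 at 72 h (adjusted p = 3.80e-05) and by 1.09 ± 0.097 in NPC (adjusted p = 4.44e-04) with W20. Txnip, which binds and inhibits thioredoxin, was at 1.30 and 1.20 in W20 cells at 72 h, 1.79 and 1.80 in EGFP cells at 72 h, -2.26 and -2.65 in W20 NPC and 0.02 and 0.39 in EGFP NPC. The W20 NPC arrays were far below the rest, and the NPC difference was -2.66 ± 0.162 (adjusted p = 1.58e-04). Cth, which makes cysteine from cystathionine, rose by 0.85 with W20 at 72 h (adjusted p = 6.31e-04).

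Of 13 other NADPH genes, 6 were higher and 2 lower with W20 at 72 h, and 8 higher and 3 lower in NPC, 61.5% and 84.6% called. Mthfd2, a mitochondrial folate enzyme, rose by 1.30 at 72 h and by 0.91 in NPC (adjusted p = 1.31e-04 and 3.53e-04), and Tigar, a phosphatase that favours the pentose phosphate pathway, by 0.66 and 0.82 (adjusted p = 3.86e-04 and 1.94e-04). Of 19 other heme and iron genes, 8 were higher and 4 lower at 72 h, and 6 higher and 5 lower in NPC, 63.2% and 57.9% called. Slc40a1, the iron exporter ferroportin, fell by 0.58 with W20 at 72 h and by 1.01 in NPC (adjusted p = 2.38e-04 and 7.01e-05), and Tfrc, the transferrin receptor, rose by 0.66 at 72 h (adjusted p = 1.17e-04). Of 13 other genes of the aryl hydrocarbon receptor pathway, 5 were higher and 3 lower at 72 h, and 3 higher and 2 lower in NPC, 61.5% and 38.5% called. Ahrr, the receptor's repressor and a target of it, fell by 0.85 with W20 at 72 h (adjusted p = 5.47e-04). Arnt2, a dimer partner, fell by 0.83 at 72 h and by 1.41 in NPC (adjusted p = 8.75e-04 and 1.68e-04). Both were dim probes. Over the alternative settings the 72 h difference ranged from -0.96 to -0.33 for Ahrr and from -0.95 to -0.22 for Arnt2.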

How the data were processed

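Total RNA of 8 samples, 2 in each of 4 groups, was hybridised in 1 colour to Agilent whole-mouse arrays. The deposited scanner files hold a background-subtracted intensity for each spot, which per the file headers came from Feature Extraction 10.7.3.1. The authors' deposited value table is on a log2 scale with its centring and scaling not given in the sources used here. After a shift, each of its NPC columns lay within 0.01 of log2 scanner intensity for 100% of 41174 probes. The other 4 columns were not used.

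The intensity was divided by the array's 75th percentile and log2 transformed, control and outlier spots were left out, and the brightest probe stood for each gene. A gene was tested if its probe exceeded background (the scanner's own call) on the 2 arrays of any group. limma 3.58.1 in R 4.3.3 fitted the 4 group means and adjusted p by Benjamini-Hochberg over 13617 genes, with 0.05 as the threshold, for 5 comparisons. Precision is limited by having so few arrays. The fitting code was tested on simulated data. Probes were named through RefSeq accessions, which left 13590 probes without a symbol.

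Alternatives were other scalings (median, quantile, spike-in), another background correction, no filter on dim probes, the mean of a gene's probes, only the arrays compared, a replicate block, the value table and single arrays left out. Members and lists were chosen with earlier results of these data known. All members are described. Other pathway genes were named from the 3 largest differences past the threshold in each list and comparison, and Slc7a11, Chac1 and Txnip were given in full after their values were seen.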

Additional observations from a re-analysis of the deposited data

Results flagged for a closer look

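For 19 members the W20 effect (W20 minus EGFP, log2) at 72 h differed from that in NPC by the limma interaction term. The effect at 72 h was the lower one for Cyp1a1 (by -3.02), Gpx3 (-0.96), Srxn1 (-0.68), Akr1c18 (-0.67), Mgst3 (-0.51), Gclm (-0.40), G6pdx (-0.40), Gpx1 (-0.39), Cyp1b1 (-0.38), Gsto1 (-0.34), Nqo1 (-0.33), Ftl1 (-0.27), Gclc (-0.21), Txn1 (-0.19) and Prdx5 (-0.19). It was the higher one for Gstm1 (0.49), Hmox1 (0.31), Gsta4 (0.30) and Ahr (0.27). The calls of Ahr, Gclc, Gsta4, Mgst3, Nqo1, Prdx5 and Txn1 were lost when single arrays were left out. Those of Cyp1b1, Ftl1, Gsto1 and Hmox1 were lost with spike-in scaling. Each stage lay on a slide of its own.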

How the results depend on the processing

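Of the members called, 14 of 26 at 72 h and 21 of 33 in NPC between W20 and EGFP cells kept direction and threshold under every alternative. So did 30 of 39 and 22 of 33 for the 72 h step in W20 and EGFP cells, and 8 of 19 interactions. The same was not counted over all genes. Quantile scaling reversed Prdx2 at 72 h (-0.0920) and Akr1b8 (-0.0596), Fth1 (-0.15), Gpx4 (-0.16) and Sod1 (-0.00945) in NPC, and gave 16 lower members at 72 h. The mean of a gene's probes reversed Tkt in NPC (-0.013). Spike-in scaling gave 4151 genes at 72 h against 7190, 4700 in NPC against 7564 and 1906 interactions against 4208. With it 16 members passed at 72 h, 7 of them higher, 16 were higher in NPC, and 9 passed in the interaction, 1 higher and 8 lower. The spike-in probes averaged 13.2 on the second W20 array of 72 h and 13.4 on the other 7, on the log2 scale. Median scaling left 2 members higher in the interaction. With no filter, 64.6% of all genes called at 72 h were higher, against 53.9%, and 39.6% with spike-in scaling. The cause was not tested.

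With single arrays left out, the members higher in NPC ranged over 16 to 25, with 16 without the second W20 NPC or second EGFP NPC array. Interactions ranged over 12 to 19, of which 2 to 4 higher, with 12 called and 2 higher without the first W20 NPC array, and 2 higher without the second EGFP array of 72 h. With the replicate number as a block, 29 members passed at 72 h, 32 in NPC, 40 and 33 for the 72 h step in W20 and EGFP cells, and 17 interactions. Deviations of same-numbered arrays correlated at -0.09 to 0.15, over 0.1 in 3 of 6 pairs of groups, so the numbers were not taken to pair the arrays. A slide block could not be fitted for the 72 h step and equals the reported fit within a stage. Normexp on mean signals was not run, and median signals were used instead, chosen after seeing the data. Dim probes such as Cyp1a1 carry only a bound in W20 cells at 72 h.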
